A study of Mus musculus with 6 samples.

Results

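The proteins that bind N6-methyladenosine (m6A) in RNA were followed here through their transcripts in epididymal white adipose tissue (eWAT) of mice that lack Mettl14 in adipocytes. The 10 reader genes were taken by symbol from a table of 21361 named genes: Ythdf1, Ythdf2, Ythdf3, Ythdc1, Ythdc2, Igf2bp1, Igf2bp2, Igf2bp3, Hnrnpa2b1 and Hnrnpc. All 10 had a row. Of these, 8 reached a mean of 1 FPKM over the libraries and were tested, while Igf2bp1 and Igf2bp3 lay under it and are given by their values.

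RNA was compared between 3 Mettl14f/f and 3 Mettl14Δfat male mice, each library from a separate animal. Both genotypes carried floxed Mettl14 alleles, and Mettl14Δfat mice also carried adiponectin-Cre, which is active in adipocytes. The control label in the sample records reads WT while the titles read ff, and the name Mettl14f/f is used. A high fat diet (HFD) was given to all mice from the age of 8 weeks. It lasted 16 weeks by the sample records and 20 weeks by the series description, and an overnight fast came before the fat was taken. The stromal, vascular and immune cells of the fat keep Mettl14, and they are in the same RNA.

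Mettl14 is a subunit of the complex that writes m6A on mRNA. Readers act after the mark is made. In the cytosol, Ythdf1, Ythdf2 and Ythdf3 share a YTH domain that holds the methylated base and are known mainly for mRNA decay and translation. Ythdc1 carries this domain in the nucleus, where it acts in splicing and export, while Ythdc2, which joins it to a helicase, is best known from germ cells. The 3 Igf2bp proteins bind RNA through KH domains and have been linked to mRNA stability, whereas Hnrnpa2b1 and Hnrnpc are abundant nuclear RNA-binding proteins for which m6A is thought to act largely by opening RNA structure.

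Values are FPKM, which divides the reads of a gene by its length and by the depth of the library, with a further scaling between libraries. They are normalized for length, so levels of different genes can be set side by side. Deposited FPKM summed to between 459180 and 461757 in a control library and between 487025 and 487690 in a knockout library. They were divided by factors of 0.932 to 0.963 and 1.04 to 1.07, respectively. Without this scaling the median over all genes of the log2 fold change moved from 0.011 to 0.15, and values that turn with it are given as deposited too. Correlations of log2 values between libraries of 1 group were 0.960 to 0.994. No depth was found for the libraries, so precision rests on the spread between mice. The authors' mean scaled counts of the 4 readers that passed the test were between 665 and 2441 a group.

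Mettl14 itself was 5.35, 5.01 and 5.81 FPKM in Mettl14f/f and 4.21, 4.12 and 4.27 in Mettl14Δfat. The groups did not overlap, with a log2 fold change of −0.30 (SE 0.0658, limma adjusted p = 0.0108). This call was not kept with FPKM as deposited (log2 fold change −0.16, adjusted p = 0.0856), with Mettl14Δfat replicate 3 alone (−0.26, adjusted p = 0.134) or with the level of 4 sperm genes as a covariate (−0.28, adjusted p = 0.0700). In bulk tissue, fewer cells of a type and less RNA per cell cannot be told apart.

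Mettl14Δfat replicates 1 and 2 stood apart from the other libraries. The summed level of 12 male germ line markers was 189.6 and 288.1 FPKM in them, against 15.05 in Mettl14Δfat replicate 3 and 15.05 to 15.29 in Mettl14f/f, where 4 of the markers were listed at 0. A list of 9 epithelial markers summed to 61.9 and 107.7 FPKM in the same pair, against 3.775 in replicate 3 and 5.45 to 7.49 in Mettl14f/f. Each reader called below is therefore also given with Mettl14Δfat replicate 3 as the sole knockout, a fit that assumes the lone sample varied like the others. Adipocyte markers were present in every library, with none of 12 listed at 0.

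Because the YTHDF transcripts resemble each other, the coding sequences were compared before levels were read as separate genes. Over the aligned bases, the longest open reading frames in GENCODE transcripts of Ythdf1 and Ythdf2 were 70.4% identical, those of Ythdf1 and Ythdf3 71.4%, and those of Ythdf2 and Ythdf3 71.9%. The stretch where the 3 are most alike is shown, 90 coding bases with the 23 positions that differ among them in capitals. It covers coding bases 1209 to 1298 of 1761 in Ythdf1, 1191 to 1280 of 1740 in Ythdf2 and 1242 to 1331 of 1791 in Ythdf3.
Ythdf1: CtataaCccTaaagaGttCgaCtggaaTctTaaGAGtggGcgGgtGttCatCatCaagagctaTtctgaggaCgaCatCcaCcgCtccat
Ythdf2: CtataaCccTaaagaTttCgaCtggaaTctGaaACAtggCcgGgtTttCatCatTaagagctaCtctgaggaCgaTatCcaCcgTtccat
Ythdf3: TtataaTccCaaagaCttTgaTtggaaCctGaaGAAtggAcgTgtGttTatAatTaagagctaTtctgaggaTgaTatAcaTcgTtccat
In this stretch Ythdf1 and Ythdf2 differed at 11 bases, Ythdf2 and Ythdf3 at 18, and Ythdf3 and Ythdf1 at 19. No run of 50 bases was shared between transcripts of any 2 reader genes. Transcripts of other genes held 7.49% of the 50-base runs of Ythdf2, 8.28% of Hnrnpc and 5.87% of Ythdc1, where reads could be divided between copies, and none of Ythdf1, Ythdf3 or Igf2bp2.

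On GRCm38, Ythdf1 lies on the minus strand of chromosome 2 (180904377 to 180920936), Ythdf2 on the minus strand of chromosome 4 (132184916 to 132212256) and Ythdf3 on the plus strand of chromosome 3 (16183148 to 16217037). Ythdc1 lies on the plus strand of chromosome 5 (86803980 to 86836659). Igf2bp2 lies on the minus strand of chromosome 16 (22059009 to 22163299), Hnrnpa2b1 on the minus strand of chromosome 6 (51460434 to 51470048) and Hnrnpc on the minus strand of chromosome 14 (52073377 to 52104039). Igf2bp3 lies on the minus strand of chromosome 6 (49085218 to 49215469) and Igf2bp1 on the minus strand of chromosome 11 (95957163 to 96005944). Exons of Igf2bp3 share 1529 of 8159 bases with Malsu1 on the opposite strand. No strand protocol was found, so reads of that overlap cannot be assigned to either gene.

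The 250 bases before the RefSeq start (GRCm38.p6) are shown for the 3 readers with the largest changes, Ythdf1 and Ythdf2, which were higher, and Igf2bp2, which was lower. Each is read along the gene's own strand, 5′ to 3′, and capitals mark matches on either strand to the letters searched.
Ythdf1, chr2:180920937-180921186: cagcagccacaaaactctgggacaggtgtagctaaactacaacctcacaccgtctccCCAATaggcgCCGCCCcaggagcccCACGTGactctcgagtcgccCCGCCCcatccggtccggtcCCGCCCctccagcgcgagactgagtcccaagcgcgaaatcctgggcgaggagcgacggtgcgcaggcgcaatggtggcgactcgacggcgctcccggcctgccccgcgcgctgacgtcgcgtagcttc
Ythdf2, chr4:132212257-132212506: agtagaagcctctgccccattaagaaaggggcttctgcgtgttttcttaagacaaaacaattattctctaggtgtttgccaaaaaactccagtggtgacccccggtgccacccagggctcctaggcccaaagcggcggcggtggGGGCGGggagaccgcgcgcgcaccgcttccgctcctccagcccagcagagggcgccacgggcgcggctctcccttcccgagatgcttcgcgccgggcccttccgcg
Igf2bp2, chr16:22163300-22163549: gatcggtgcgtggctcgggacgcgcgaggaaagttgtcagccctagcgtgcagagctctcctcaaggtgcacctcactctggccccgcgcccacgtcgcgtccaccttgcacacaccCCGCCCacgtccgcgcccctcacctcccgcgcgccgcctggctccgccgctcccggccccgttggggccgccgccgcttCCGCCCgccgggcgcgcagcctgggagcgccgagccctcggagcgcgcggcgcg
The 3 windows are rich in CpG, with 30 in Ythdf1, 22 in Ythdf2 and 40 in Igf2bp2, against a median of 6 over 27025 promoters of the same length. Igf2bp2 held more CpG than 98.7% of promoters. The GC box (GGGCGG), present in 32.9% of promoters, matched 3 times in Ythdf1, once in Ythdf2 and at 2 places in Igf2bp2. Ythdf1 also held a CCAAT box (CCAAT, 34.5% of promoters) and an E-box (CACGTG, 6.0%). A TATA box (TATAAA) was in none of the 3 windows. Nor was the ETS core (CCGGAAG) or the CRE (TGACGTCA). Of the other readers with a window, Ythdc1 held 4 GC boxes, while Igf2bp3, Hnrnpa2b1 and Hnrnpc held none. CpG was also frequent in Hnrnpa2b1, which was not called, with 29 or 28 by the start used. The part of these letters in the changes was not tested. Of the 10 readers, 7 had an entry in the promoter table, without Ythdf3, Ythdc2 and Igf2bp1.

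The reader transcripts did not move as a group. Of the 8 tested, 3 were higher in Mettl14Δfat (Ythdf1, Ythdf2 and Ythdc1), 1 was lower (Igf2bp2) and 4 did not pass an adjusted p of 0.05 (Ythdf3, Ythdc2, Hnrnpa2b1 and Hnrnpc). Among all 12955 genes tested, 49.5% passed, 24.8% as higher and 24.7% as lower, so the share of readers that passed, 50%, lay at the background. The median log2 fold change was 0.023 for the 8 readers and 0.011 for all genes. The groups did not overlap for 5 of the 8 readers, against 61.2% of all genes. The count of 4 was the same in each fit that left out 1 library.

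**Figure D1:**
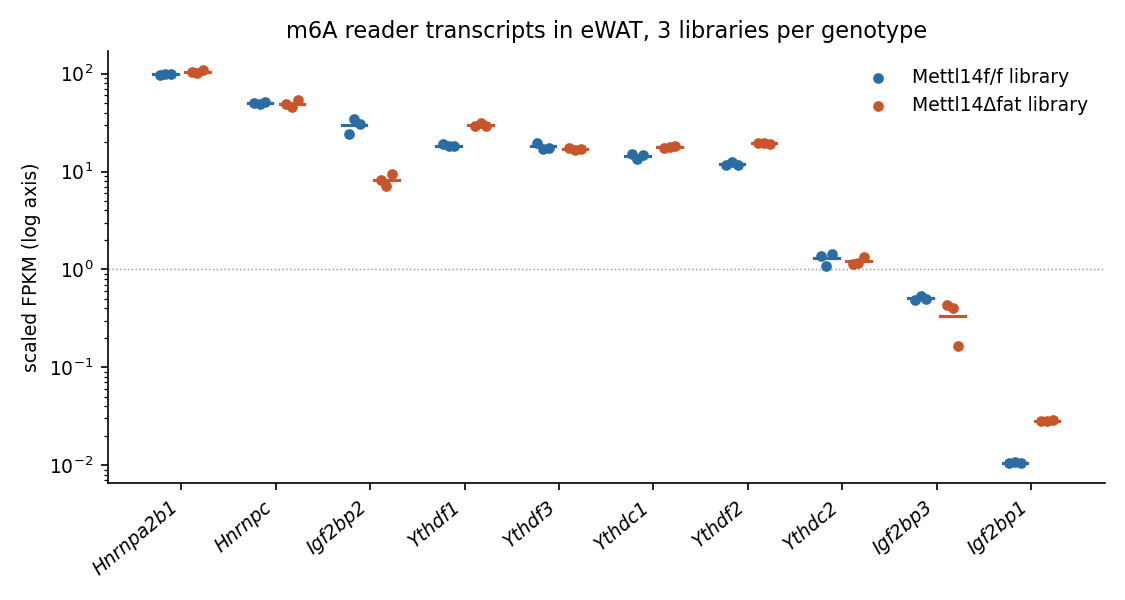
Scaled FPKM of the 10 reader transcripts on a log axis, ordered by their Mettl14f/f mean. Points are libraries, 3 a genotype, short bars are group means and the dotted line marks 1 FPKM. Igf2bp2 fell from 24.0 to 34.5 FPKM in Mettl14f/f to 7.12 to 9.39 in Mettl14Δfat, while Ythdf1 and Ythdf2 were higher in Mettl14Δfat.

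Among the cytosolic readers, Ythdf1 and Ythdf2 rose in Mettl14Δfat and Ythdf3 did not. Ythdf1, a reader best known for translation of methylated mRNA, was 19.001, 18.040 and 18.042 FPKM in Mettl14f/f and 29.360, 31.307 and 28.972 in Mettl14Δfat. All 3 Mettl14Δfat values lay above all 3 controls. The means were 18.4 ± 0.555 and 29.9 ± 1.25 FPKM (SD, n = 3 a group), a 1.63-fold difference with a log2 fold change of 0.67 (SE 0.0544, 95% interval 0.54 to 0.80, limma adjusted p = 0.000377).

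Ythdf2, the reader best known for recruiting deadenylases to methylated mRNA, was 11.5, 12.6 and 11.8 FPKM in Mettl14f/f and 19.5, 19.6 and 19.3 in Mettl14Δfat. The knockout values had an SD of 0.153 FPKM (n = 3) and were clear of the controls. The log2 fold change was 0.66 (SE 0.0516, 95% interval 0.54 to 0.78, limma adjusted p = 0.000333), again 1.63-fold.

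With Mettl14Δfat replicate 3 alone, the log2 fold change was 0.64 for Ythdf1 (limma, adjusted p = 0.00885) and 0.66 for Ythdf2 (limma, adjusted p = 0.00951). Under the 18 alternatives both stayed past the threshold, with log2 fold changes of 0.55 to 0.83 for Ythdf1 and 0.55 to 0.81 for Ythdf2.

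Ythdf3, which acts with the other 2 in translation and decay, was 19.6, 17.2 and 17.5 FPKM in Mettl14f/f and 17.3, 16.6 and 17.1 in Mettl14Δfat. The ranges overlapped. The log2 fold change was −0.081 (95% interval −0.23 to 0.071, limma adjusted p = 0.320), and its sign turned with FPKM as deposited, to 0.072.

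The summed YTHDF level was 50.1, 47.8 and 47.3 FPKM in Mettl14f/f and 66.2, 67.5 and 65.35 in Mettl14Δfat. Within that sum the makeup shifted. Ythdf1 made up 38.0% ± 0.209 of it in control fat and 45.0% ± 1.18 (SD, n = 3) in knockout fat. Ythdf2 went from 24.7% ± 1.66 to 29.35% ± 0.274, and Ythdf3 from 37.3% ± 1.59 to 25.6% ± 0.911. In Mettl14f/f the ranges of Ythdf1 and Ythdf3 overlapped, whereas in Mettl14Δfat both Ythdf1 and Ythdf2 stood above Ythdf3 in every library.

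Cell type markers moved in the same libraries. All 10 endothelial markers were higher in Mettl14Δfat, against 24.8% of all genes. Their summed levels were 195.0 to 245.9 FPKM in control libraries and 392.6 to 444.5 in knockout libraries. None was listed at 0. Of 12 adipocyte markers 4 were higher and 1 lower, against 24.8% and 24.7% of all genes. Their sum was 8142 to 11180 and 10740 to 15440 FPKM. The part of these cells in the YTHDF values was not tested.

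Of the YTHDC transcripts, Ythdc1 was 1.24-fold higher in Mettl14Δfat and Ythdc2 was scarce in both groups. Ythdc1 was 15.1, 13.3 and 14.8 FPKM in Mettl14f/f and 17.45, 17.96 and 18.42 in Mettl14Δfat. The groups did not overlap, with means of 14.4 ± 0.959 and 17.9 ± 0.485 (SD, n = 3). The log2 fold change was 0.30 (SE 0.0621, 95% interval 0.15 to 0.45, limma adjusted p = 0.00843). The call was lost when values were scaled to the ribosomal protein gene Rplp0 (0.18, adjusted p = 0.108) and with Mettl14Δfat replicate 3 alone (0.35, adjusted p = 0.0605).

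Ythdc2, whose known partner Meioc is a meiotic protein, lies on the plus strand of chromosome 18 (44827730 to 44889720). It was 1.38, 1.08 and 1.42 FPKM in Mettl14f/f and 1.15, 1.16 and 1.34 in Mettl14Δfat. The ranges overlapped, and the pair of libraries that hold germ line transcripts, Mettl14Δfat replicates 1 and 2, were not above the rest. The log2 fold change was −0.050 (95% interval −0.33 to 0.23, limma adjusted p = 0.745), and 0.039 with FPKM as deposited.

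Igf2bp2 had the largest change of the 8 readers tested. It binds Igf2 mRNA, among others, and its gene is a known target of the chromatin protein Hmga2. Igf2bp2 was 24.0, 34.5 and 30.7 FPKM in Mettl14f/f and 8.26, 7.12 and 9.39 in Mettl14Δfat. The highest knockout library lay well under the lowest control. The means were 29.75 ± 5.29 and 8.26 ± 1.14 (SD, n = 3), so that Mettl14Δfat held 0.278 of the control level, with a log2 fold change of −1.72 (SE 0.148, 95% interval −2.08 to −1.37, limma adjusted p = 0.000433). With Mettl14Δfat replicate 3 alone it was −1.53 (limma, adjusted p = 0.00885). All 18 alternatives kept the call, at −1.87 to −1.53.

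**Figure D2:**
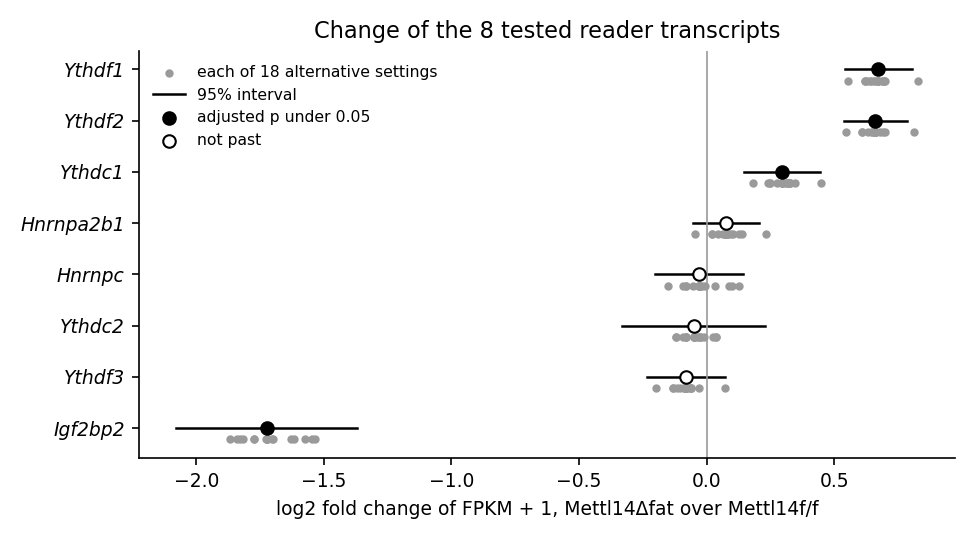
Log2 fold change on log2(FPKM + 1), Mettl14Δfat over Mettl14f/f, of the 8 tested readers, with 95% intervals from limma. Filled circles passed an adjusted p of 0.05 and grey points give each of 18 alternative settings. Grey points of Ythdf1, Ythdf2, Ythdc1 and Igf2bp2 stay on 1 side of 0, while those of Ythdf3, Ythdc2, Hnrnpa2b1 and Hnrnpc lie on both.

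Macrophage markers also fell. Of 16, 9 were lower and none higher, against 24.7% and 24.8% of all genes. None was listed at 0, and their sum was 10430 to 11540 FPKM in Mettl14f/f and 3788 to 7314 in Mettl14Δfat. Of 14 proliferation markers 10 were lower, with sums of 260.6 to 282.3 and 160.4 to 185.1 FPKM, and of 10 fibroblast progenitor markers 4 were lower and 1 higher. None of 7 tested lymphocyte markers passed. Macrophage sums differed among the knockout libraries, 5028, 3788 and 7314 FPKM, and Igf2bp2 had the same order in them, lowest in replicate 2 and highest in replicate 3. This order is not particular to macrophages. Proliferation, fibroblast progenitor and lymphocyte sums had it too, while adipocyte, endothelial, germ line and epithelial sums had the reverse. The part of any of these cell types in the Igf2bp2 difference was not tested.

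The other 2 family members were scarce in adult fat. Igf2bp3 was 0.488, 0.537 and 0.499 FPKM in Mettl14f/f and 0.432, 0.401 and 0.164 in Mettl14Δfat. The groups did not overlap, and knockout replicate 3 lay well under the others. Igf2bp1 was deposited at 0.01 FPKM in each Mettl14f/f library and at 0.03 in each Mettl14Δfat library, 1 and 3 steps of the 2-decimal rounding, so no fold is given. With no filter on low values, limma gave adjusted p = 0.130 for Igf2bp3 and adjusted p = 0.445 for Igf2bp1.

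Hnrnpa2b1 and Hnrnpc, the hnRNP readers, were the most abundant of the 10, and neither passed the test. Hnrnpa2b1, which has been linked to processing of primary miRNA, was 97.9, 100.4 and 98.4 FPKM in Mettl14f/f and 104.0, 100.7 and 108.0 in Mettl14Δfat. The groups touched without overlapping. The log2 fold change was 0.075 (95% interval −0.055 to 0.20, limma adjusted p = 0.284), 0.23 with FPKM as deposited (adjusted p = 0.00706), and −0.047 when scaled to Rplp0 (adjusted p = 0.520).

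Hnrnpc, which binds uridine tracts, was 50.4, 48.6 and 51.3 FPKM in Mettl14f/f and 49.1, 45.2 and 53.3 in Mettl14Δfat. Control values lay inside the knockout range. The log2 fold change was −0.029 (95% interval −0.20 to 0.14, limma adjusted p = 0.757), and 0.13 with FPKM as deposited.

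The order of the readers by level therefore changed between genotypes. In Mettl14f/f it ran Hnrnpa2b1, Hnrnpc, Igf2bp2, Ythdf1, Ythdf3, Ythdc1, Ythdf2, Ythdc2, Igf2bp3 and Igf2bp1, and only the ranges of Ythdf1 and Ythdf3 overlapped between neighbours. In Mettl14Δfat it ran Hnrnpa2b1, Hnrnpc, Ythdf1, Ythdf2, Ythdc1, Ythdf3, Igf2bp2, Ythdc2, Igf2bp3 and Igf2bp1, with no overlap between neighbours. Igf2bp2 thus went from rank 3 to rank 7, and Ythdf2 from 7 to 4. Against all tested genes, the mean level of Igf2bp2 moved from the 78.7 to the 44.3 percentile, Ythdf1 from 68.0 to 79.3 and Ythdf2 from 56.0 to 69.6. Hnrnpa2b1 was at 94.0 and 94.7.

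Ratios of 2 readers within a library do not depend on the scaling between libraries. Related readers were compared as 8 pairs, with an exact two-sided permutation test over the 6 libraries whose smallest possible p is 0.1, so that none could pass 0.05. The ratio of Ythdf1 to Ythdf2 was 1.65, 1.43 and 1.53 in Mettl14f/f and 1.504, 1.598 and 1.501 in Mettl14Δfat. These values overlapped (exact permutation p = 1), with geometric means of 1.54 and 1.53, so the pair was in nearly the same proportion in both genotypes.

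Against Ythdf3 both were shifted. Ythdf1 to Ythdf3 was 0.972, 1.051 and 1.033 in Mettl14f/f and 1.69, 1.89 and 1.70 in Mettl14Δfat, a log2 difference of 0.79 (exact permutation p = 0.1, adjusted over the 8 pairs 0.16). Ythdf2 to Ythdf3 was 0.590, 0.733 and 0.673 in Mettl14f/f and 1.13, 1.18 and 1.13 in Mettl14Δfat, also 0.79 (exact permutation p = 0.1, adjusted 0.16). Neither set of values overlapped between genotypes.

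Ythdc1 to Ythdc2 was 11.0, 12.3 and 10.4 in Mettl14f/f and 15.2, 15.5 and 13.7 in Mettl14Δfat, a log2 difference of 0.40 (exact permutation p = 0.1, adjusted 0.16). Hnrnpa2b1 to Hnrnpc was 1.94, 2.07 and 1.92 against 2.12, 2.23 and 2.03, and overlapped (exact permutation p = 0.2, adjusted 0.229). Igf2bp2 to Igf2bp3 was 49.3, 64.3 and 61.6 in Mettl14f/f and 19.1, 17.7 and 57.2 in Mettl14Δfat, where replicate 3 lay among the controls (exact permutation p = 0.2, adjusted 0.229). Pairs with Igf2bp1 rest on its values of 0.01 and 0.03 FPKM and are not read.

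**Figure D3:**
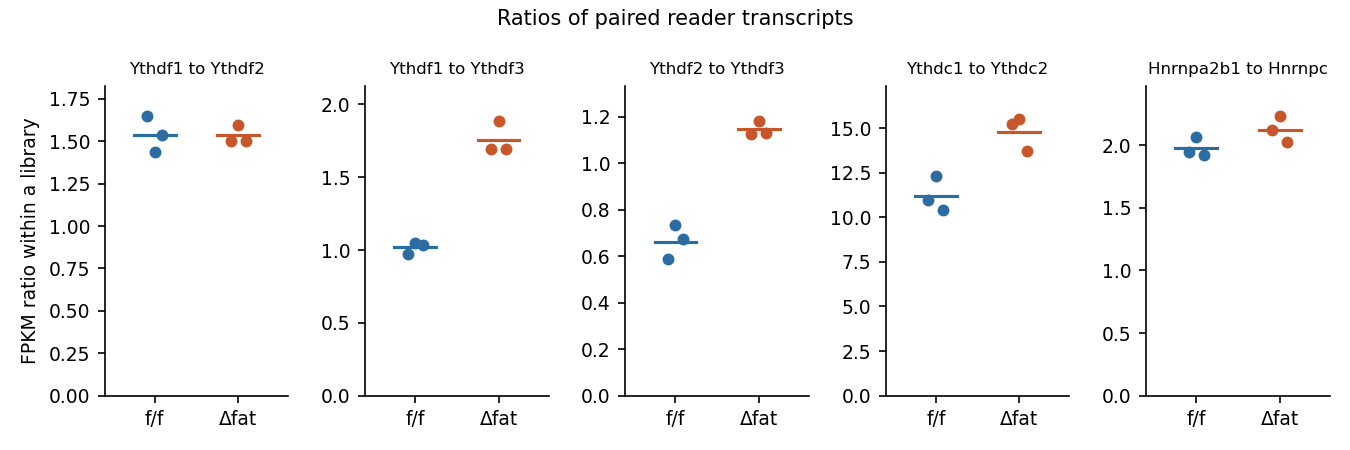
FPKM ratio of paired readers within each library, on axes that start at 0. Points are libraries, 3 a genotype, and bars are geometric means. The ratio of Ythdf1 to Ythdf2 overlaps between Mettl14f/f and Mettl14Δfat, whereas both ratios to Ythdf3 are higher in every Mettl14Δfat library.

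Genes that work with the readers were counted as lists. Over all lists, 90 genes were tested, of which 9 were higher and 34 lower in Mettl14Δfat, against 24.8% and 24.7% of all genes. In all, 43 of the 90 passed, which is near the 49.5% of all genes, and the lists are read as descriptions. Their median log2 fold change was −0.14, and that of all genes 0.011. The counts of higher and lower moved with the scaling, and so did those of all genes. With FPKM as deposited 22 were higher and 15 lower, against 4672 and 1963 of all 12955 genes. The medians were then −0.0035 for the lists and 0.15 for all genes. Scaled to Rplp0 5 were higher and 54 lower, against 2085 and 4352 of all genes. The medians were then −0.26 and −0.094. The list median thus lay under that of all genes in each of these settings. With Mettl14Δfat replicate 3 alone the list median was −0.089, and that of all genes 0.0055. Among the genes named in the lists, that setting ended the calls of Cnot8, Hnrnpul2, Xpo5, Dgcr8, Prrc2a, Eif3b, Rbm15, Mettl16, Zc3h13 and 1110037F02Rik, and of those where it is given.

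In the cytosol, Ythdf2 recruits the CCR4-NOT deadenylase, which shortens poly(A) tails. Of 11 tested subunits 6 were lower and 1 higher, against 24.7% and 24.8% of all genes, with a median of −0.20. With FPKM as deposited 4 were lower and 2 higher, against 1963 and 4672 of all 12955 genes. Rqcd1, the subunit also called Cnot9, fell from 15.25 ± 0.457 to 10.3 ± 0.620 FPKM (SD, n = 3, log2 fold change −0.53, limma adjusted p = 0.000958). The scaffold Cnot1 fell by 0.38 (adjusted p = 0.00186) and the deadenylase Cnot6l by 0.38 (adjusted p = 0.0028) on the log2 scale by limma, while the deadenylase Cnot8 was 0.19 higher (adjusted p = 0.0186), a call lost when scaled to Rplp0. The scaffold and Ythdf2 thus moved in opposite directions in the same libraries.

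The other known decay route from Ythdf2 runs through Rida (also called HRSP12) to RNase P/MRP, an endonuclease, and a further one through the decay helicase Upf1. Of these 12 genes 5 were higher and none lower, against 24.8% and 24.7% of all genes, with a median of 0.27. Scaled to Rplp0 4 were higher and 3 lower, against 2085 and 4352 of all 12955 genes. Pop7 rose from 12.8 ± 1.05 to 21.4 ± 2.19 FPKM (SD, n = 3, log2 fold change 0.70, limma adjusted p = 0.00157). Rpp38 was 0.52 higher (adjusted p = 0.0121) and Rpp14 0.46 higher (adjusted p = 0.00529) by limma. Neither passed with Mettl14Δfat replicate 3 alone, at 0.42 for Rpp38 (adjusted p = 0.0719) and 0.29 for Rpp14 (adjusted p = 0.0625). These are RNase P/MRP subunits with roles in tRNA and rRNA processing too. The linker Rida was 7.41 ± 0.977 and 9.57 ± 1.28 FPKM and did not pass (limma, adjusted p = 0.0549).

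For Ythdc1, 8 splicing and export partners were tested. Only Khdrbs1, which encodes the RNA-binding protein Sam68, passed, lower at −0.35 (limma, adjusted p = 0.00861). With Mettl14Δfat replicate 3 alone it was −0.22 (adjusted p = 0.1235), and with the level of 4 sperm genes as a covariate −0.23 (adjusted p = 0.0713), so this call was lost. With FPKM as deposited 5 of the 8 were higher and 1 lower, against 4672 and 1963 of all 12955 genes. The median was then 0.20 for the 8 and 0.15 for all genes. The splicing factor Srsf3 was 31.8 ± 0.839 and 32.9 ± 1.09 FPKM (SD, n = 3). Of 3 Ythdc2 partners only the exonuclease Xrn1 was tested, at −0.12 (limma, adjusted p = 0.196). The means of the meiotic partners Meioc and Rbm46 lay under 1 FPKM in both groups, so neither was tested. Meioc was 0.169, 0.187 and 0.0193 FPKM in Mettl14Δfat, against 0.0215 to 0.0425 in Mettl14f/f. Rbm46 was 1.01, 0.933 and 0.840 FPKM in Mettl14Δfat, against 0.425 to 0.655 in Mettl14f/f.

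**Figure D4:**
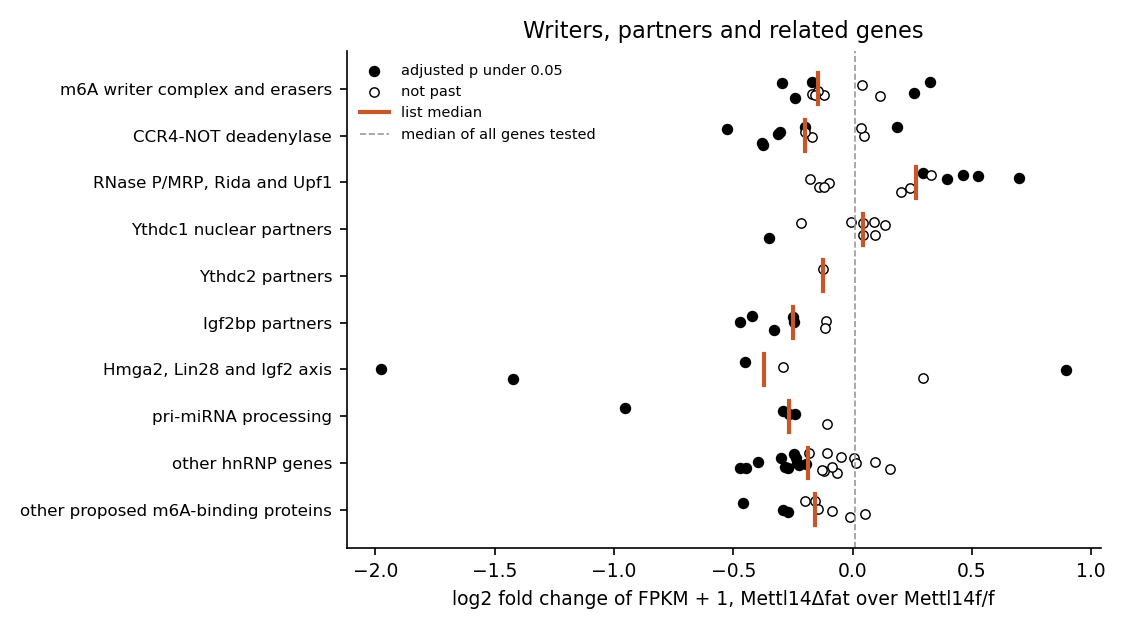
Log2 fold change on log2(FPKM + 1), Mettl14Δfat over Mettl14f/f, of each tested gene in 10 lists of writers, partners and related genes. Filled circles passed an adjusted p of 0.05, orange bars are list medians and the dashed line is the median of all genes tested. Hmga2 and Hmga1 lie farthest to the left. The list with RNase P/MRP has a median of 0.27, which is 0.19 when scaled to Rplp0.

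Of 7 tested genes whose proteins bind with Igf2bp proteins, 5 were lower and none higher, against 24.7% of all genes lower, with a median of −0.25. With FPKM as deposited 3 were lower, against 1963 of all 12955 genes. With Mettl14Δfat replicate 3 alone the median was −0.13, and that of all genes 0.0055. Syncrip fell from 29.3 ± 1.47 to 20.8 ± 0.436 FPKM (SD, n = 3, log2 fold change −0.47, limma adjusted p = 0.00108). The poly(A)-binding protein gene Pabpc1 was −0.42 (adjusted p = 0.00804) and the cold shock domain gene Ybx1 −0.33 (adjusted p = 0.00669) by limma, and neither passed with Mettl14Δfat replicate 3 alone. The remaining members Elavl1 and Matr3 did not pass.

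Genes of the Hmga2, Lin28 and Igf2 axis are known from growth and from the control of Igf2bp2. Of 6 tested, 3 were lower and 1 higher, against 24.7% and 24.8% of all genes. Hmga2 was 5.91, 6.92 and 7.13 FPKM in Mettl14f/f and 0.939, 1.11 and 0.782 in Mettl14Δfat. No knockout library reached a control value, and the log2 fold change was −1.98 (SE 0.102, limma adjusted p = 0.00012).

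Hmga1, its relative, fell from 334.9 ± 44.9 to 124.2 ± 16.5 FPKM (SD, n = 3, log2 fold change −1.42, limma adjusted p = 0.000543). The growth regulator Myc was −0.45 (limma, adjusted p = 0.00153). Igf2, the growth factor whose mRNA gave the Igf2bp family its name, went the other way, from 2.34 ± 0.373 to 5.22 ± 0.806 FPKM (log2 fold change 0.90, limma adjusted p = 0.00214). Each of these 4 calls was kept with FPKM as deposited, scaled to Rplp0 and with Mettl14Δfat replicate 3 alone.

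The receptor Igf1r was 2.11 ± 0.171 and 2.83 ± 0.568 FPKM (limma, adjusted p = 0.0935), and the non-coding RNA H19 was 4.34 ± 1.65 and 3.27 ± 0.844 (limma, adjusted p = 0.383). Lin28a was listed at 0 in every library. The part of Hmga2 or the other genes of this axis in the Igf2bp2 difference was not tested.

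**Figure D5:**
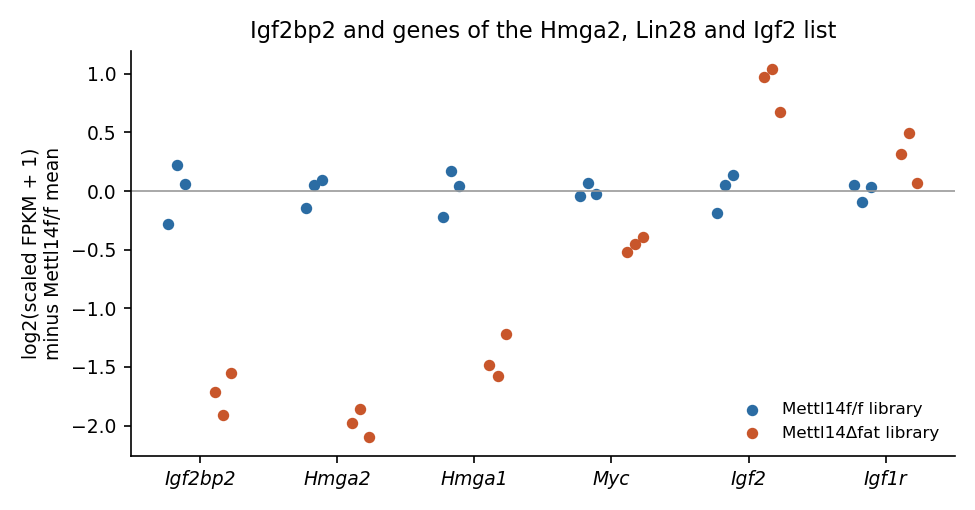
Log2(scaled FPKM + 1) of Igf2bp2 and 5 of the 6 tested genes of its axis, each minus the Mettl14f/f mean, with 1 point for each of the 6 libraries. H19, the tested gene not drawn, overlapped between the groups. Hmga2, Hmga1 and Myc lie below the controls in every Mettl14Δfat library with Igf2bp2, and Igf2 lies above them.

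For the hnRNP readers, 22 other hnRNP genes were tested, of which 11 were lower and none higher, against 24.7% and 24.8% of all genes. Their median was −0.19, and that of all genes 0.011. With FPKM as deposited 3 were lower and 3 higher, against 1963 and 4672 of all 12955 genes. Their median was then −0.028, and that of all genes 0.15. The hnRNP median thus lay under that of all genes in both settings. Syncrip (given above) and Hnrnpll, a splicing regulator at −0.45 (limma, adjusted p = 0.00105), were lower in both, as was Hnrnpul2 at −0.40 (limma, adjusted p = 0.00497). Of 5 genes of miRNA processing 4 were lower, against 24.7% of all genes, and 1 with FPKM as deposited, against 1963 of all 12955. Ago2, which carries miRNAs, fell from 8.21 ± 0.866 to 3.74 ± 0.138 FPKM (SD, n = 3, log2 fold change −0.95, limma adjusted p = 0.000412). The exporter Xpo5 was −0.29 (adjusted p = 0.00731) and Dgcr8, which binds primary miRNA, −0.27 (adjusted p = 0.0142) by limma, and both calls were lost as deposited.

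Among 9 other proteins proposed to bind m6A, 3 were lower and none higher, against 24.7% and 24.8% of all genes, with a median of −0.16. With FPKM as deposited, where 1963 of all 12955 genes were lower, 1 of the 9 was lower. This was Eif3a, a translation initiation subunit that fell from 52.4 ± 3.36 to 37.8 ± 2.69 FPKM (SD, n = 3, log2 fold change −0.46, limma adjusted p = 0.00358). Prrc2a was −0.29 (adjusted p = 0.00636) and Eif3b −0.27 (adjusted p = 0.00684) by limma.

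Of the 11 writers and erasers of the mark, 2 were higher and 3, Mettl14 included, lower, near the shares of all genes (24.8% and 24.7%). With FPKM as deposited 3 were higher and none lower, against 4672 and 1963 of all 12955 genes. The adaptor Rbm15 was 0.32 (adjusted p = 0.0212) and the methyltransferase Mettl16 0.26 (adjusted p = 0.0159) by limma, and neither passed when scaled to Rplp0. Zc3h13 was −0.24 (adjusted p = 0.0298) and 1110037F02Rik, the subunit Virma, −0.17 (adjusted p = 0.0286) by limma, and both calls were lost as deposited. Mettl3, the catalytic partner of Mettl14, was 9.64 ± 1.31 and 8.43 ± 0.744 FPKM (SD, n = 3, limma adjusted p = 0.223). The erasers Fto and Alkbh5 did not pass.

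Genes whose profile over the 6 libraries lay closest to each called reader were found by the root mean square difference of log2 values from the Mettl14f/f mean. Sdc4 (0.0110) was nearest to Ythdf1, and Tmem47 (0.0199) to Ythdf2. Tmem47 was low, with means of 1.53 FPKM in Mettl14f/f and 3.02 in Mettl14Δfat, against 11.95 and 19.5 for Ythdf2. For such a low gene the likeness depends on the 1 added to FPKM before the log. Ccnl2 (0.0159), a cyclin with a role in splicing, was nearest to Ythdc1. For Igf2bp2 the nearest were Syngr1 (0.0639), Trim29 (0.0665) and the matrix gene Fn1 (0.0864), at log2 fold changes of −1.64, −1.74 and −1.76. This likeness covers 6 libraries of 2 groups and follows mostly from the size of the difference between them.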

How the data were processed

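RNA-seq of eWAT from 3 Mettl14f/f and 3 Mettl14Δfat mice was used, grouped by the sample titles. Values deposited by the authors are FPKM per library with 2 decimals, made after their alignment and counting. The methods of the study name STAR, HTSeq and DESeq2, whereas the submitters' notes on processing list DESeq2, RSEM, HISAT2 and Bowtie2, and mm10 (GRCm38) as the build. No versions were found. A second deposited table holds a mean signal for each group, a count scaled by the authors, which was used for depth only, and the authors' own fold changes and p-values, which were not used. The table had 21362 entries, and 1 that names no gene was dropped.

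FPKM was divided by an unweighted trimmed mean of M values (30% of ratios and 5% of levels trimmed) over genes whose mean reached 1 FPKM. Those 12955 genes were tested on log2(FPKM + 1) with lmFit and eBayes with a trend in limma 3.58.1 (R 4.3.3), after tests on simulated data, with Benjamini-Hochberg adjustment over all of them. Fold changes on this scale understate those of low genes. The plan preferred counts, and the fit it set for FPKM was used. Named list genes are up to 3 with the largest changes in each direction among those past an adjusted p of 0.05, and those not past were chosen after their values were seen. The readers and lists were chosen with earlier results of these data known. Sequences are from GENCODE vM21 and RefSeq tables of GRCm38. The 18 alternatives covered the pseudocount, filter, scaling, blocks, trend, germ line level and left-out libraries.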

Additional observations from a re-analysis of the deposited data

How the results depend on the processing

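The 4 reader calls were 5 with FPKM as deposited, 3 when scaled to Rplp0, 3 with Mettl14Δfat replicate 3 alone, and 4 under every other setting run. Signs turned as deposited for Ythdf3 (0.072), Ythdc2 (0.039) and Hnrnpc (0.13), when scaled to Rplp0 for Hnrnpa2b1 (−0.047), with Mettl14Δfat replicate 3 alone for Ythdc2 (0.039) and Hnrnpc (0.10), and with a covariate made of 4 sperm genes for Ythdc2 (0.026) and Hnrnpc (0.090). None of these 4 readers was called in the main comparison. Leaving out 1 library, Hnrnpc ranged from −0.092 to 0.035, positive without Mettl14Δfat replicate 2. Mettl14 lost its call as deposited (−0.16), with Mettl14Δfat replicate 3 alone (−0.26) and with the germ line covariate (−0.28). Genes past the threshold numbered 6416, and 3175 and 4175 under the last 2 settings. As deposited 4672 were higher and 1963 lower, against 3214 and 3202, and scaled to Rplp0 2085 were higher and 4352 lower. Of the genes in the lists 43 passed, 14 with Mettl14Δfat replicate 3 alone, 22 with the covariate, and 28 (without Mettl14Δfat replicate 1) to 45 with 1 library left out. The log2 difference of Ythdf1 to Ythdf2 was −0.0026, 0.0155 on FPKM + 1, and −0.0523 to 0.0482 with 1 library left out. On FPKM + 1, Igf2bp1 to Igf2bp2 went from 3.27 to 1.603 and Igf2bp1 to Igf2bp3 from 2.16 to 0.16. The cause of these changes was not tested.

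Correlations of same-numbered deviations were 0.039, −0.093 and −0.129, which gave no sign that replicate numbers pair the mice. With so few mice a group, these values cannot decide whether same-numbered mice were paired. Some same-numbered mice carry close animal numbers in the sample titles, and whether they share a litter was not tested. A replicate block gave 5214 genes and 4 readers past the threshold, and 30 genes of the lists. In this balanced design a block cannot change a log2 fold change or the mean of a paired ratio, only its error. Mettl14 was thus again at −0.30, with a limma adjusted p = 0.0325.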
